A study of Mus musculus with 4 samples.

Results

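The collagen genes of the embryonic mouse cochleovestibular ganglion were compared between 4 genotypes. They were chosen by name alone, as gene IDs made of Col, a type number, a and a chain number, which gave 44 of the 25239 genes in the tables. The ganglia, which hold the young auditory and vestibular sensory neurons beside the otic vesicle, came from embryonic day 11.5, with 1 library each of the genotypes labelled control, Isl1CKO, Pou4f1KO and DKO. By these names, Isl1CKO lacks the LIM-homeodomain gene Isl1 through a conditional allele, Pou4f1KO lacks the POU-homeodomain gene Pou4f1, and DKO combines the alleles. The sources used here name neither the driver of the conditional deletion, nor the strain, the alleles of the control embryos or the number of embryos pooled. With 1 library per genotype there is no replicate spread, so no difference below has a replicate check and no p-value is given.

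Pou4f1 stood at 16.6 TPM in Pou4f1KO and 14.6 TPM in DKO against 146 TPM in control, which goes with both labels. Isl1 stood at 854 TPM in Isl1CKO and 579 TPM in DKO against 450 TPM in control, which does not, and a value over the whole gene need not cover a deleted part. Both are named below by their label only, as the library labelled Isl1CKO or DKO, and each direction drawn from them rests on that label. TPM is the unit of abundance used here, corrected for gene length and comparable within a library. The libraries held 13.6 to 16.6 gigabases of aligned sequence, so that a typical gene at 1 TPM was read 4.95 to 5.93 times per base on average. This depth holds for the 61.3% to 61.5% of gene entries above 0 that share the most common ratio of depth to abundance. All 20 neuron markers examined, Tubb3 and Nefm among them, were above 1 TPM in every library, and so were all 13 endothelial markers. Of 13 epithelial markers, 10 reached 1 TPM in each library, not always the same ones. The ganglia thus came with RNA of other cells.

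Collagens are secreted or membrane proteins whose chains wind into triple helices. Fibrillar collagens form the fibres of loose connective tissue and are typical products of mesenchyme. Type IV collagen forms the sheet of basement membranes, on which epithelia, vessels and Schwann cell precursors rest. Types II, IX and XI make the thin fibrils of cartilage, and the embryonic otic epithelium and the periotic tissue also make type II and type IX. The genes were grouped by class into 8 fibrillar, 8 basement membrane, 7 cartilage and 21 other collagens. All 44 were protein coding and overlapped a gene of the same name and strand in GENCODE M21, and they lay on 15 chromosomes.

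Type IX collagen gave the largest differences from control among the collagens, so the starts of Col9a1 and Col9a2 are shown first; that of Col9a3 is not shown here. Its chains are encoded by Col9a1 (mm10 chromosome 1, 24177610 to 24252738, plus strand, up to 38 exons in GENCODE M21), Col9a2 (chromosome 4, 121039566 to 121055325, plus strand, up to 32 exons) and Col9a3 (chromosome 2, 180598222 to 180622185, plus strand, up to 33 exons). RefSeq gives Col9a1 an upstream and a downstream start. Each sequence holds the 250 bases before a start on the plus strand of GRCm38.p6, at chr1:24177360-24177609, chr1:24194953-24195202 and chr4:121039316-121039565. Those of Col1a2 (chr6:4505368-4505617) and Col8a2 (chr4:126286544-126286793), which were higher in the library labelled DKO than in the library labelled Isl1CKO, are set beside them. Capitals mark any match on either strand to GGGCGG, known as the GC box, to the box spelled CCAAT, to TATAAA, known as the TATA box, to ACAAT, the core of SOX factor motifs, or to TAATTA, a core bound by many homeodomains.
Col9a1 upstream start: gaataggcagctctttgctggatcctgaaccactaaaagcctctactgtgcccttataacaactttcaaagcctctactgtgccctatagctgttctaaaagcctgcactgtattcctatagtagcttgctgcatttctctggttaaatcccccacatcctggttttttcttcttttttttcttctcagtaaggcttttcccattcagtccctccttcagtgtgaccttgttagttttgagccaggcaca
Col9a1 downstream start: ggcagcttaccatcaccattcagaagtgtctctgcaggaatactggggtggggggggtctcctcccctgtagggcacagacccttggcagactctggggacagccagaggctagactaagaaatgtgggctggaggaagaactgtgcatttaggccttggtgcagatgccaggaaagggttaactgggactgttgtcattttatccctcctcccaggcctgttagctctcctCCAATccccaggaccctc
Col9a2: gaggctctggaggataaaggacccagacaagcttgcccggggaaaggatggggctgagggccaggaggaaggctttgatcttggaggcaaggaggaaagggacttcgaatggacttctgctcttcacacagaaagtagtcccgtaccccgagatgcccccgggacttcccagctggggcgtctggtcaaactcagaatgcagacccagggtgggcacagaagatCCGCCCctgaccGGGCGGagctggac
Col1a2: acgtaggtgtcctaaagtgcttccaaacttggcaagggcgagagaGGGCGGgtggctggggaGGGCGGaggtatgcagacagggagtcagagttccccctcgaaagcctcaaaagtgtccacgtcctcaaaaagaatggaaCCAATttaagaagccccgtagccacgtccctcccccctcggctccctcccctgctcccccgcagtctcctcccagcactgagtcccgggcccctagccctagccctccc
Col8a2: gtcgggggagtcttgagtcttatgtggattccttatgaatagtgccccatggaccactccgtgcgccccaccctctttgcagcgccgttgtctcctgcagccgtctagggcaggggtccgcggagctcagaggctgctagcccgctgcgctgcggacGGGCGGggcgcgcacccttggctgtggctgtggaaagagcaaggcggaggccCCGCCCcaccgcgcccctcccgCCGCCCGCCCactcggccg

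The upstream start of Col9a1 had a GC content of 43.6% and none of these letters in its window. Its downstream start had a CCAAT box 18 bases before the start, and Col9a2 had GC boxes beginning 14 and 26 bases before it. Col1a2 had 2 GC boxes and a CCAAT box, and Col8a2 had 4 GC boxes with a GC content of 70.0%. Windows were found for 35 of the 44 collagen genes, 38 windows in all. A GC box stood in 22 of these 38 windows (57.9%) and in 32.7% of the 32851 windows of all genes. The other shares were 34.2% against 33.8% for the CCAAT box, 13.2% against 12.4% for the TATA box, 5.26% against 27.7% for the SOX core and 5.26% against 4.84% for the homeodomain core. A match describes the letters only.

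Collagen RNA summed to 1447 TPM in control, 1132 in the library labelled Isl1CKO, 1222 in Pou4f1KO and 1410 in the library labelled DKO. Cartilage collagens held the largest share in control, 40.7% of collagen TPM, against 36.0%, 28.3% and 26% in these mutant libraries in the same order. Fibrillar collagens held 16.8% in control, 16.6% and 22.0% in the single mutants and 23.7% in the library labelled DKO. The share of basement membrane collagens lay between 20.6% and 22.0% in all libraries. Of the 44 genes, 34 reached 1 TPM in at least 1 library and were compared. The other 10 were Col24a1, Col4a3, Col4a4, Col10a1, Col6a4, Col6a5, Col6a6, Col8a1, Col19a1 and Col28a1, whose highest value in any library was 0.855 TPM (Col4a4).

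**Figure D1:**
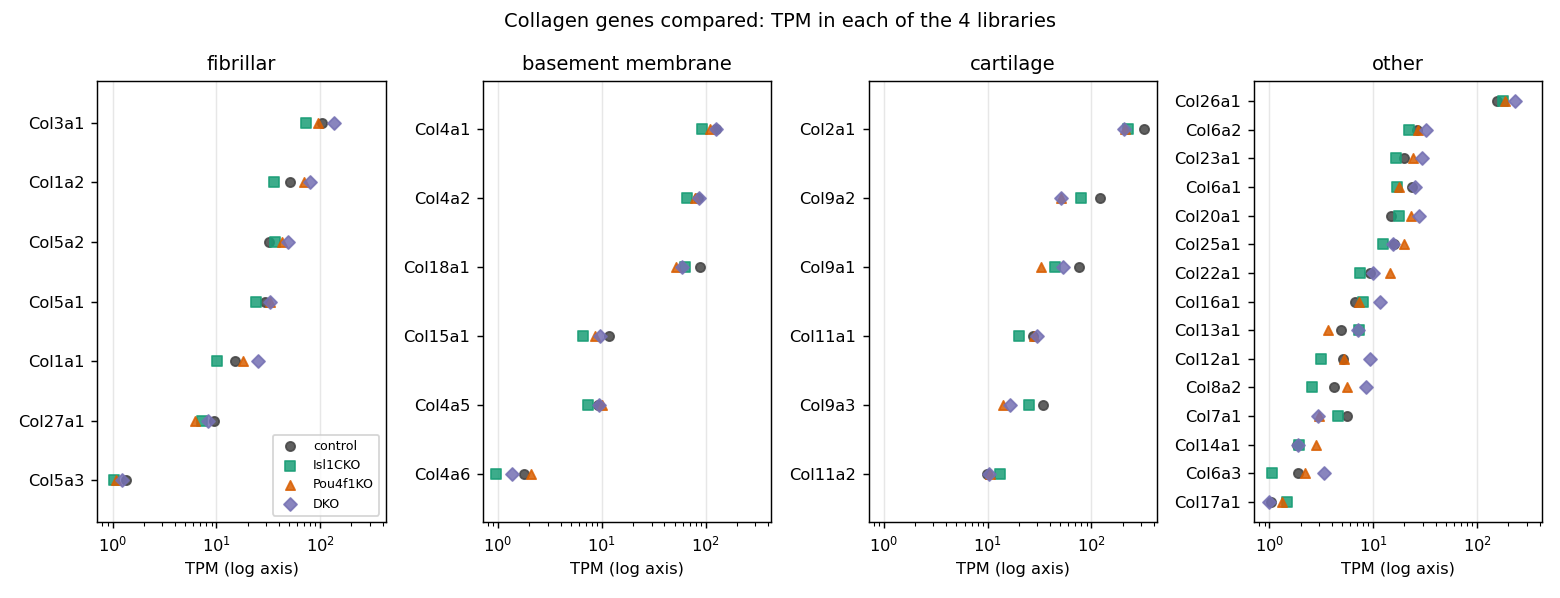
TPM (log axis) of the 34 compared collagen genes, 1 panel per class, with 1 symbol for each of the 4 libraries. Levels run from about 1 TPM (Col5a3, Col17a1) to 319 TPM (Col2a1 in control), and the library labelled DKO is the rightmost symbol for Col3a1, Col1a2 and Col1a1.

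A collagen was called higher or lower past 2-fold, a log2 ratio of (TPM + 1) of at least 1 or at most -1; this scale understates the difference of weakly expressed genes. Against control, 0 collagens were called in the library labelled Isl1CKO in either direction, where 0.585% of all 15049 compared genes were called higher and 0.618% lower. In Pou4f1KO 3 of 34 were called lower (1.73% of all genes) and 0 higher (0.977%). In the library labelled DKO 2 were called lower (2.34% of all genes) and 0 higher (1.01%). These 3 comparisons share the control library. Against the library labelled Isl1CKO, 5 collagens were called higher in the library labelled DKO (0.870% of all genes) and 0 lower (1.23%), and against Pou4f1KO 0 were higher (0.645%) and 0 lower (1.12%).

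**Figure D2:**
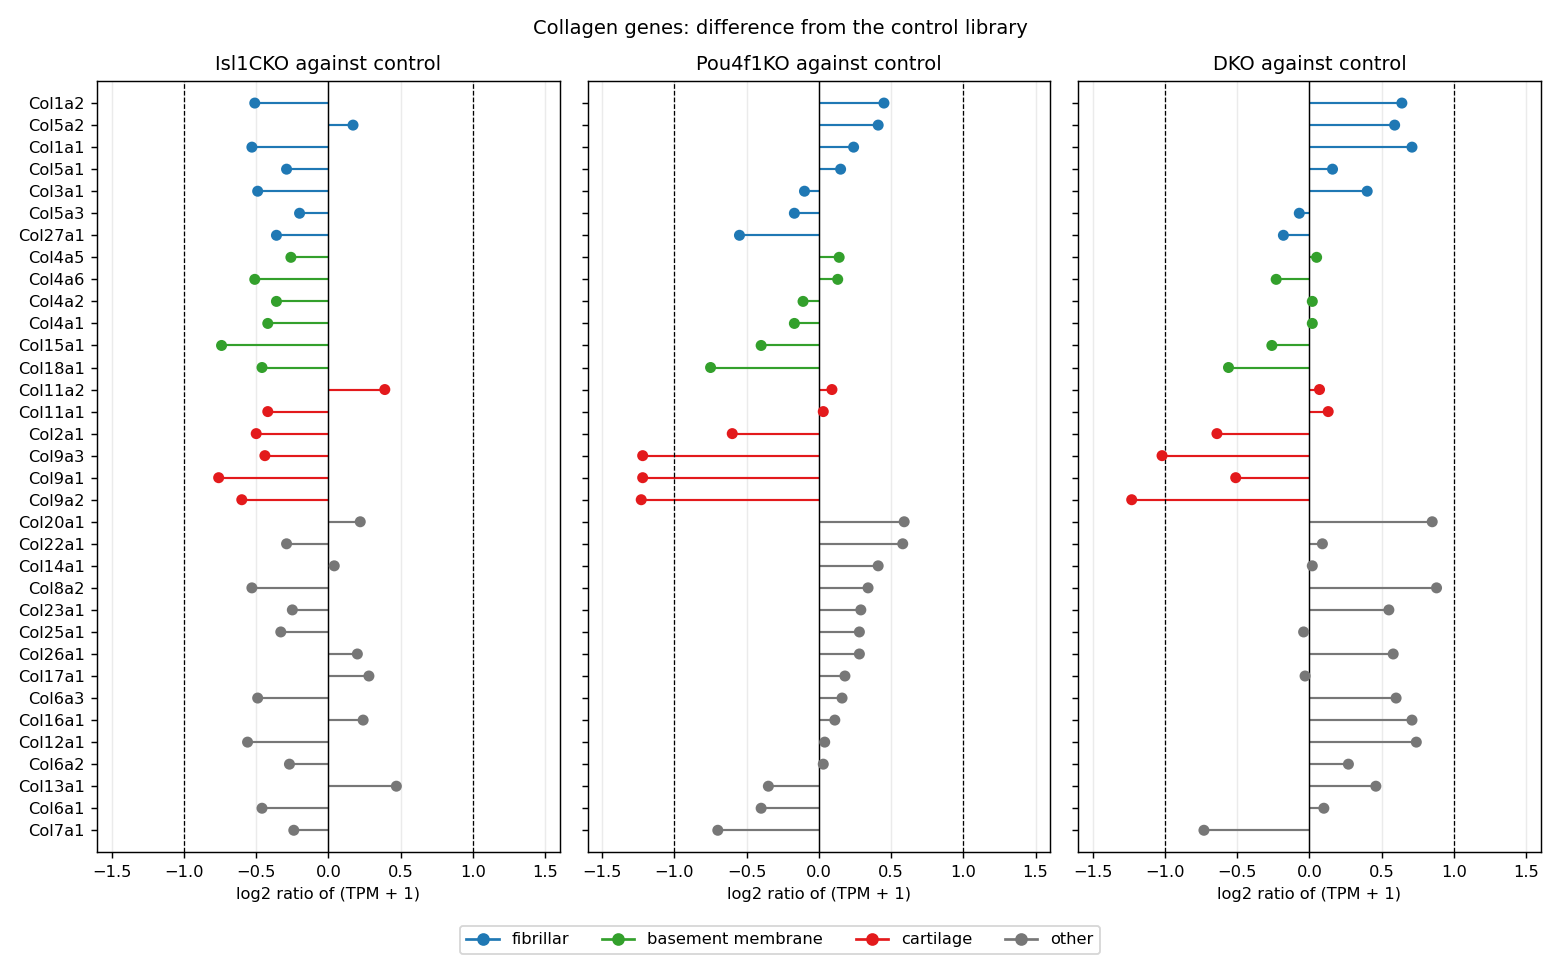
Log2 ratio of (TPM + 1) of each compared collagen to control in the 3 mutant libraries, coloured by class, with dashed lines at 2-fold. Col9a1, Col9a2 and Col9a3 lie past the lower line in Pou4f1KO, at -1.22, -1.23 and -1.22, and every point of the library labelled Isl1CKO lies between the lines.

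The cartilage class held every collagen called against control. Col9a2 stood at 122 TPM in control, 79.9 in the library labelled Isl1CKO, 51.3 in Pou4f1KO and 51.3 in the library labelled DKO. Col9a1, the chain whose long form carries a large amino-terminal domain, stood at 76.7, 44.9, 32.4 and 53.6 TPM in the same order, and Col9a3 at 34.3, 25.1, 14.2 and 16.4 TPM. Control was the highest library for each of the 3 genes, and Pou4f1KO or the library labelled DKO the lowest.

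In Pou4f1KO the log2 ratios to control were -1.22 for Col9a1, -1.23 for Col9a2 and -1.22 for Col9a3, which is 2.33-, 2.35- and 2.32-fold lower. In the library labelled DKO Col9a2 (-1.23) and Col9a3 (-1.02) were past 2-fold, and Col9a1 was at -0.51. In the library labelled Isl1CKO they were at -0.76, -0.60 and -0.44. Within a library, Col9a1 stood at 0.629 of the Col9a2 level in control, 0.562 in the library labelled Isl1CKO and 0.630 in Pou4f1KO, but at 1.05 in the library labelled DKO. The ratio of Col9a2 to Col9a3 ranged only from 3.13 to 3.62. The library labelled DKO therefore differed from the others in the level of Col9a1 relative to its partner chains. The last 230 bases of the Col9a3 row overlap Tcfl5 on the opposite strand, which was at 4.41 to 7.36 TPM.

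Col2a1, which encodes the main fibril chain of cartilage, was the most abundant collagen, at 319 TPM in control, 225 in the library labelled Isl1CKO, 210 in Pou4f1KO and 204 in the library labelled DKO. Its log2 ratios to control were -0.50, -0.60 and -0.64, short of 2-fold. The type XI genes, whose chains assemble with that of Col2a1, did not share these values. Col11a1 stood at 27.5, 20.2, 28.1 and 30.1 TPM in this order, and Col11a2 at 9.82, 13.2, 10.5 and 10.3 TPM, highest in the library labelled Isl1CKO. The level of Col11a1 relative to Col2a1 was 0.0862 in control, 0.0902 in the library labelled Isl1CKO, 0.134 in Pou4f1KO and 0.147 in the library labelled DKO. Col10a1, made by hypertrophic chondrocytes, was at 0.0450 TPM in control and listed at 0 elsewhere. The median log2 ratio of the 6 compared cartilage collagens was -0.47, -0.91 and -0.57 in the mutant libraries in the same order, while the median of all compared genes was -0.02, 0.02 and -0.01.

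Most markers of the otic epithelium and of epithelia were below control in the same libraries. Oc90, the main otoconial protein, was at 9.94% of its control level in Pou4f1KO and 27.3% in the library labelled DKO, and Otol1, a collagen-like otoconial protein, at 28.9% and 13.3%. The summed level of 18 otic epithelium markers was 639 TPM in control, 411 in the library labelled Isl1CKO, 366 in Pou4f1KO and 228 in the library labelled DKO. Fgf10 among them stood at 96.5, 46.7, 144 and 57.5 TPM in this order. It was above control in Pou4f1KO and held a large share of the sum there. In Pou4f1KO 15 of the 18 markers lay below control and 3 above. Of these 18 markers, 12 were called lower (1.73% of all genes) and 1 higher (0.977%) in Pou4f1KO. In the library labelled DKO 10 were called lower (2.34% of all genes) and 0 higher (1.01%). The one called higher in Pou4f1KO was Pax8, an otic and neural transcription factor, with 2.91 TPM there against 0.867 TPM in control, a log2 ratio of 1.07; it was picked after its values were seen. For 13 markers of surface ectoderm and epithelium the sums were 407, 243, 81.1 and 87.3 TPM. The part of these cells in the type IX values was not tested, and in bulk RNA fewer cells of a type and less RNA per cell cannot be told apart.

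Of 12 other genes of cartilage 8 were compared. Among them, Cnmd, which encodes chondromodulin, and Matn1, which encodes the matrix protein matrilin-1, were called lower in Pou4f1KO, with log2 ratios of -2.21 and -1.10, and Cnmd also in the library labelled DKO (-1.47). Of all genes, 1.73% were called lower in Pou4f1KO and 2.34% in the library labelled DKO. None of the 8 was called higher, and in both libraries 4 of them lay above control and 4 below, with medians of -0.12 and 0.01. Sox5, a SOX factor of cartilage, was at 0.49 in Pou4f1KO, and Ucma, which encodes a cartilage matrix protein, was at 0.96 in the library labelled Isl1CKO and 0.90 in the library labelled DKO. Acan, the defining proteoglycan of cartilage, stood at 0.0428 TPM in control, 0.0235 in the library labelled Isl1CKO, 0.0991 in Pou4f1KO and 0.166 in the library labelled DKO. Sox9, the chondrogenic factor that is also made in the otic epithelium, stood at 45.6 TPM in control, 31.3 in the library labelled Isl1CKO, 37.7 in Pou4f1KO and 39.3 in the library labelled DKO; Acan, and Sox9 outside the library labelled Isl1CKO, were picked after their values were seen.

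**Figure D3:**
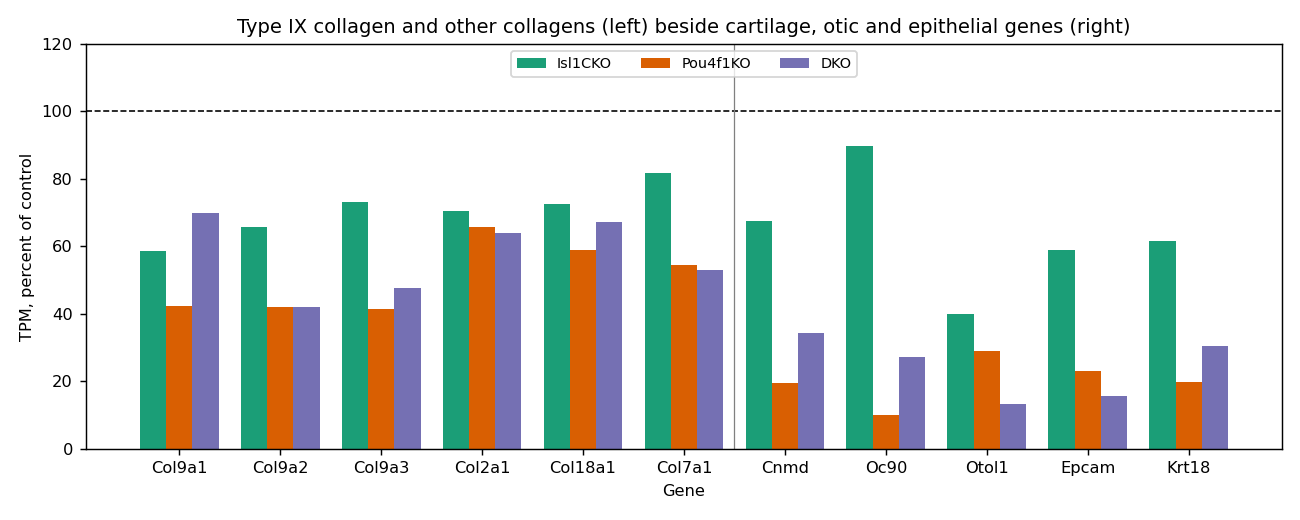
TPM as percent of the control library (dashed line) for 6 collagens and 5 genes of cartilage, otic epithelium and epithelia, 1 bar per mutant library and no replicates. Type IX bars of Pou4f1KO lie at 41.4% to 42.2%, and those of Oc90 and Epcam at 9.94% and 23.1%. The genes shown were picked from longer lists, and all lay below control. In Pou4f1KO 20 of 34 compared collagens and 4 of 8 cartilage genes lay above control. So did 3 of 18 otic markers and 1 of 11 epithelial markers.

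Fibrillar collagens were lowest in the library labelled Isl1CKO and highest in the library labelled DKO for the type I and type III genes. Col1a2 stood at 51.3 TPM in control, 35.7 in the library labelled Isl1CKO, 70.5 in Pou4f1KO and 80.4 in the library labelled DKO. Col1a1, its partner in type I collagen, stood at 15.0, 10.1, 17.9 and 25.2 TPM in this order, and Col3a1, which forms the fibres of soft tissue, at 103, 72.9, 96.2 and 137 TPM. None of them was called against control in any library; their log2 ratios were -0.49 to -0.53 in the library labelled Isl1CKO and 0.40 to 0.71 in the library labelled DKO.

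Between these mutant libraries the distance was larger. Col1a1 was 2.36-fold and Col1a2 2.22-fold higher in the library labelled DKO than in the library labelled Isl1CKO (log2 ratios 1.24 and 1.15), and Col3a1 was at 0.90. Col1a1 stood at only 0.253 to 0.313 of the Col1a2 level in the 4 libraries, although both chains belong to the same trimer. Col5a1 and Col5a2, whose type V product lies inside type I fibrils, were at 29.6 and 32.1 TPM in control and 33.2 and 48.7 TPM in the library labelled DKO, and at 24.0 and 36.4 TPM in the library labelled Isl1CKO and 32.9 and 43.0 TPM in Pou4f1KO. Col5a3 lay between 1.03 and 1.34 TPM and Col27a1 between 6.20 and 9.54 TPM. The class medians were -0.36 in the library labelled Isl1CKO, 0.15 in Pou4f1KO and 0.40 in the library labelled DKO. Scaled to equal pan-neuronal genes, the Pou4f1KO median turned to -0.15.

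The median of 20 mesenchyme markers, of which 17 were compared, was -0.57 in the library labelled Isl1CKO, -0.44 in Pou4f1KO and 0.27 in the library labelled DKO. Their summed level was 267 TPM in control, 169 in the library labelled Isl1CKO, 159 in Pou4f1KO and 250 in the library labelled DKO. The sum was highest in control, but this rests on Six2, at 96.7 TPM in control and 30.8 TPM in the library labelled DKO. Without Six2, which was set aside after its values were seen, the sum was highest in the library labelled DKO and lowest in the library labelled Isl1CKO. In Pou4f1KO the sum lay below control with or without Six2, while Col1a1 and Col1a2 lay above control there. In the library labelled DKO 14 of the 17 compared markers lay above control and 3 below. The part of mesenchyme in the fibrillar values was not tested. Twist2, a mesenchymal bHLH factor, had a log2 ratio of -0.88 in the library labelled Isl1CKO and 0.67 in the library labelled DKO. Six2, a homeobox gene of mesenchyme, was called lower in Pou4f1KO (-1.61) and in the library labelled DKO (-1.62), and its level of 96.7 TPM in control is a large share of that sum. Prrx2, a homeobox gene, was called lower in the library labelled Isl1CKO (-1.04). Tbx18, a T-box gene, was called higher in the library labelled DKO (1.28) and was at 0.88 in the library labelled Isl1CKO, above control where 16 of the 17 markers lay below it. In Pou4f1KO the mesenchyme and fibrillar medians lay on opposite sides of 0. Between 14 and 17 of the 20 markers reached 1 TPM in each library. Scaled to equal mesenchyme markers, the fibrillar median was 0.11 in the library labelled Isl1CKO, 0.58 in Pou4f1KO and 0.14 in the library labelled DKO, and 0 collagens were called higher in the library labelled DKO than in the library labelled Isl1CKO (0.140% of all genes). The same scaling brought the type IX genes of Pou4f1KO to between -0.79 and -0.80, short of 2-fold. It shifts every gene of a library alike. The median of all genes moved by -0.79 for the library labelled DKO against the library labelled Isl1CKO. For Pou4f1KO against control it moved by 0.42. These changes therefore say nothing on the part of mesenchyme.

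None of the 6 compared basement membrane collagens was called in any comparison. Of all genes, 0.585% to 2.34% were called in each direction, so none among 6 genes is near that share. Col4a1 (chromosome 8, 11198423 to 11312826, minus strand) stood at 124 TPM in control, 91.9 in the library labelled Isl1CKO, 110 in Pou4f1KO and 125 in the library labelled DKO. Col4a2, which starts head to head with it (11312805 to 11449287, plus strand), stood at 84.7, 65.6, 78.6 and 86.0 TPM. The rows overlap by 22 bases on opposite strands, and the ratio of Col4a1 to Col4a2 lay between 1.40 and 1.46 in all 4 libraries. The library labelled Isl1CKO was the lowest for both genes, with log2 ratios of -0.42 and -0.36.

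The X-linked pair Col4a5 and Col4a6 was weaker, at 7.39 to 10.1 and 0.954 to 2.05 TPM. Col18a1, whose product yields endostatin, stood at 87.0 TPM in control, 63.1 in the library labelled Isl1CKO, 51.3 in Pou4f1KO and 58.5 in the library labelled DKO, with log2 ratios of -0.46, -0.75 and -0.56. Col15a1, its relative in the outer basement membrane zone, stood at 11.6, 6.52, 8.55 and 9.51 TPM. All 6 compared members were below control in the library labelled Isl1CKO, with a median of -0.44, and the median was -0.14 in Pou4f1KO and -0.11 in the library labelled DKO. The last of these turned to 0.02 without the minimum of 1 TPM or with one of 5 TPM. The markers of endothelium, which rests on a basement membrane, summed to 141, 102, 132 and 172 TPM in the order control, Isl1CKO, Pou4f1KO and DKO; their part was not tested.

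The class of other collagens held the genes with the widest range over the libraries. Col8a2, a network collagen known from Descemet's membrane of the cornea, stood at 4.19 TPM in control, 2.58 in the library labelled Isl1CKO, 5.57 in Pou4f1KO and 8.53 in the library labelled DKO. Col12a1, which coats fibrils, stood at 5.12, 3.16, 5.27 and 9.22 TPM, and Col6a3, a chain of the beaded microfibrils, at 1.87, 1.05, 2.20 and 3.34 TPM. The library labelled Isl1CKO was the lowest and the library labelled DKO the highest for all 3, with log2 ratios between them of 1.41, 1.30 and 1.09. With a pseudocount of 5 TPM none of the 3 reached 2-fold. Col6a1 and Col6a2, the partners of Col6a3, stood at 23.7 and 26.7 TPM in control and 25.5 and 32.4 TPM in the library labelled DKO, and at 16.9 and 22.0 TPM in the library labelled Isl1CKO and 17.8 and 27.3 TPM in Pou4f1KO. Col6a3 was at 0.0618 to 0.131 of the Col6a1 level.

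Col26a1, an EMI-domain collagen with a short triple helix, was the most abundant of this class, at 154 TPM in control, 177 in the library labelled Isl1CKO, 187 in Pou4f1KO and 232 in the library labelled DKO, so that control was the lowest library. The membrane-spanning Col23a1 stood at 19.7, 16.4, 24.3 and 29.3 TPM, and Col25a1, a membrane collagen of neurons, at 16.0, 12.5, 19.7 and 15.6 TPM. Col20a1 stood at 15.0, 17.7, 23.1 and 27.8 TPM and had the highest ratio of any collagen in Pou4f1KO (0.59). Col13a1, a membrane collagen of the neuromuscular junction, was at 4.95, 7.22, 3.68 and 7.19 TPM, higher than control in both libraries with the Isl1 label. Col7a1, which anchors epithelia to the stroma, was at 5.55, 4.54, 3.02 and 2.94 TPM, highest in control like most of the epithelial markers. The epithelial markers Krt5, Krt14 and Trp63, none above 1.2 TPM, were highest in other libraries. Col14a1, Col16a1, Col17a1 and Col22a1 had log2 ratios to control between -0.29 and 0.71. The 15 compared members had medians of -0.25, 0.18 and 0.46 in the 3 mutant libraries.

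**Figure D4:**
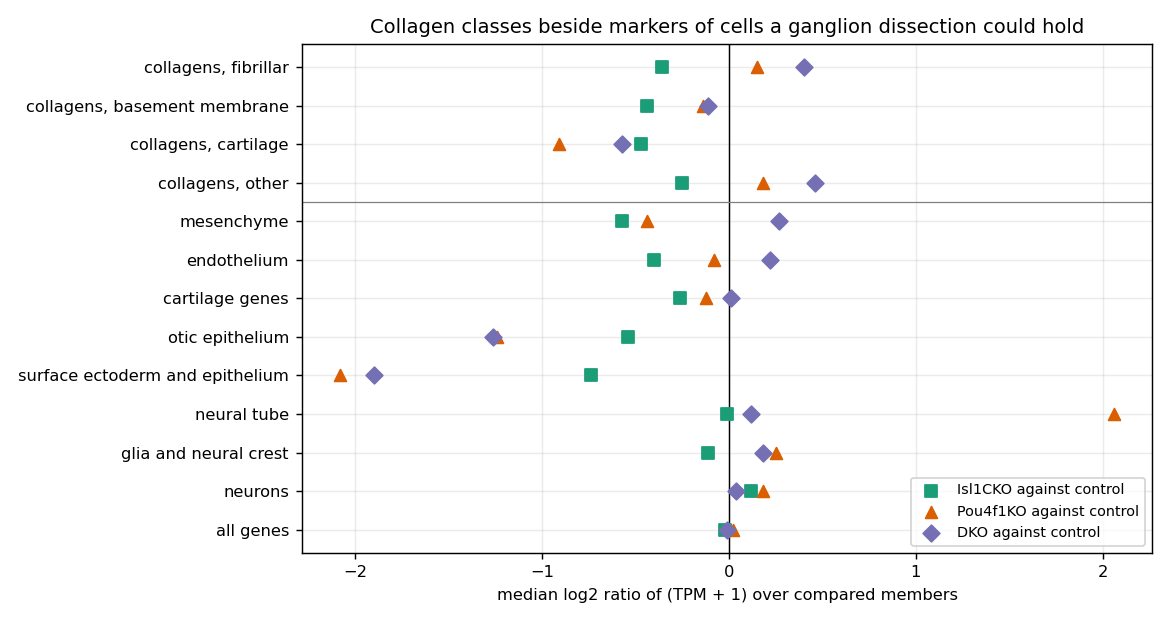
Median log2 ratio of (TPM + 1) to control for the 4 collagen classes (above the line) and for cartilage genes, markers of other cells and all genes, 1 symbol per mutant library. The cartilage collagens lie at -0.91 in Pou4f1KO and the otic epithelium markers at -1.24; fibrillar collagens lie at 0.40 in the library labelled DKO and mesenchyme markers at 0.27.

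The effect of each label can be read from pairs that have no library in common: for Isl1 from the library labelled Isl1CKO against control and the library labelled DKO against Pou4f1KO, and for Pou4f1 from Pou4f1KO against control and the library labelled DKO against the library labelled Isl1CKO. For the Isl1 label 19 of 34 collagens were lower in the first pair and higher in the second, against 22.5% of all genes, and 8 did so in opposite directions by at least 0.32 on the log2 scale (2.33% of all genes). Col9a1 was at -0.76 and 0.71, Col12a1 at -0.56 and 0.70 and Col1a1 at -0.53 and 0.47. The medians of the same pairs were -0.57 and 0.60 for mesenchyme, -0.40 and 0.35 for endothelium and -0.54 and -0.32 for otic epithelium. For the Pou4f1 label 2 collagens did so (1.77% of all genes). Col9a2 was at -1.23 and -0.63 and Col9a3 at -1.22 and -0.58, lower in both pairs, while Col9a1 was at -1.22 and 0.25. With 1 library in each cell of this design the difference between pairs was not tested.

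**Figure D5:**
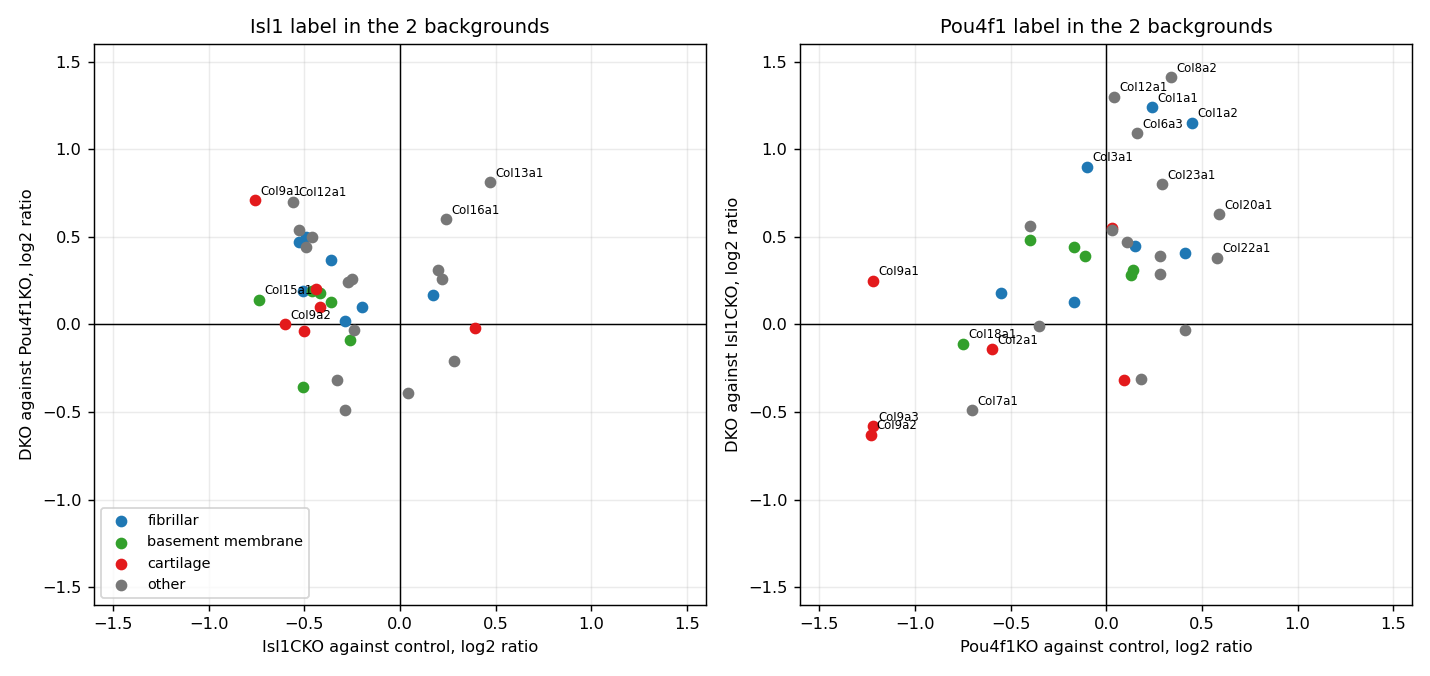
Log2 ratio of (TPM + 1) of the 34 compared collagens for the Isl1 label (left) and the Pou4f1 label (right), without the other label on the x axis and with it on the y axis; axes share no library. Col9a1 lies at -0.76 and 0.71 in the left panel, and Col9a2 and Col9a3 lie in the lower left corner of the right panel at -1.23 and -0.63 and at -1.22 and -0.58.

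Genes that make, bind or degrade collagen were examined as fixed lists. Of 31 compared genes of collagen synthesis and crosslinking, 1 was called against control, higher in the library labelled DKO (1.01% of all genes). This was Lox, which encodes lysyl oxidase, the enzyme that crosslinks collagen and elastin. It stood at 4.29 TPM in control, 8.26 in the library labelled Isl1CKO, 5.26 in Pou4f1KO and 13.3 in the library labelled DKO, where its log2 ratio was 1.44. Its relative Loxl2 had log2 ratios of 0.68, 0.41 and 0.89. In both genes the libraries with the Isl1 label lay above those without it. Serpinh1, the collagen chaperone HSP47, which was picked after its values were seen, lay between 413 and 522 TPM. The median of the synthesis list was -0.06, -0.00 and 0.06. In Pou4f1KO Adamts14, a procollagen amino-propeptidase, was at -0.88 and Colgalt2, a collagen galactosyltransferase, at -0.87.

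Of 9 compared collagen receptors, Adgrg1, the adhesion receptor GPR56 that binds type III collagen, was called lower in the library labelled DKO (2.34% of all genes). It stood at 32.3 TPM in control, 18.7 in the library labelled Isl1CKO, 42.5 in Pou4f1KO and 14.5 in the library labelled DKO, a log2 ratio of -1.10 to control and -1.49 to Pou4f1KO. Ddr2, a receptor kinase for fibrillar collagen made by mesenchyme, was at -0.58, -0.36 and 0.46 against control. None of 9 compared genes of collagen breakdown and none of 9 collagen-binding proteoglycans and glycoproteins was called against control. Of all genes, 0.585% to 2.34% were called in each direction of these comparisons. Mmp2, a gelatinase, was at -0.48, -0.23 and 0.33, and Bgn, which encodes biglycan, was at 0.64 in the library labelled DKO.

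Of 13 compared laminins, nidogens and proteoglycans of basement membranes, Lama5, the laminin chain of epithelial basement membranes, was called lower in Pou4f1KO (log2 ratio -1.22) and in the library labelled DKO (-1.26). Of all genes, 1.73% and 2.34% were called lower there. Lama5 stood at 8.63 TPM in control, 6.12 in the library labelled Isl1CKO, 3.14 in Pou4f1KO and 3.01 in the library labelled DKO, the same order of libraries as for Col7a1. Lamc3 had log2 ratios of 0.73 and 0.94 in Pou4f1KO and the library labelled DKO. The medians of this list were -0.26, 0.15 and 0.04, beside -0.44, -0.14 and -0.11 for the basement membrane collagens.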

How the data were processed

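Bulk RNA of mouse cochleovestibular ganglia at embryonic day 11.5 was measured in 4 libraries made with a directional kit, per the labels' protocols. The submitters' processing notes name the build mm10 and the tools FastQC, HISAT2, StringTie, SAMtools and Trimmomatic, without order, version or setting. The sources used here do not give the annotation or whether counting used strand. The authors deposited TPM and FPKM for each gene, per the file headers, and coverage, a signal that gives the mean read depth per base and is not scaled between libraries. No counts were used. The most common value of coverage divided by FPKM gave the depth of each library.

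TPM of rows with the same symbol was summed (Python 3.11.15, pandas 2.3.3). A gene was compared if it reached 1 TPM in at least 1 library, which left 15049 genes. Ratios are log2 of (TPM + 1), and 2-fold was called. Collagen classes, gene lists and markers were chosen with earlier results of these data known. Values in every library were given for the 3 most abundant collagens of each class, those called and their chain partners, and up to 4 members of other lists per comparison; other collagens named were chosen after their values were seen. RefSeq starts (GRCm38.p6) were searched for motifs. The computing of ratios and calls was tested on simulated data, which bears on the arithmetic and not on replicate error. Alternatives were other pseudocounts and minimums, FPKM, coverage, a 1.5-fold threshold, and scaling by median of ratios, pan-neuronal genes or mesenchyme markers.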

Additional observations from a re-analysis of the deposited data

Results flagged for a closer look

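Several collagens had a difference tied to 1 label that pointed in opposite directions, by at least 0.32 each on the log2 scale, without and with the other label. The size given is the log2 ratio with the other label minus that without it. For the Isl1 label it was 1.47 for Col9a1, 1.26 for Col12a1, 1.07 for Col8a2, 1.0 for Col1a1, 1.0 for Col3a1, 0.96 for Col6a1, 0.93 for Col6a3 and 0.73 for Col27a1, all lower in the library labelled Isl1CKO than in control and higher in the library labelled DKO than in Pou4f1KO. For the Pou4f1 label it was 0.96 for Col6a1 and 0.88 for Col15a1. For any gene this size is the same value under either label, since both use the same 4 libraries. The 0.96 of Col6a1 is therefore 1 value listed under both labels, not separate support. None of these differences was tested, since each rests on 4 libraries with no replicate. For the Isl1 label the medians of mesenchyme (-0.57 and 0.60), endothelium (-0.40 and 0.35) and surface ectoderm and epithelium (-0.74 and 0.17) also changed sign. Those of otic epithelium (-0.54 and -0.32), glia and neural crest (-0.11 and -0.11) and neural tube (-0.01 and -1.80) were negative in both pairs. Neuron medians were 0.12 and -0.20.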

How the results depend on the processing

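Of 100 values of the counts of called collagens under other settings, 83 lay within 1.5 times the main count and 17 did not. Most main counts were 0, and each 0 that stayed 0 is among the 83. The 83 therefore says little about the main counts above 0. At 1.5-fold the counts against control were 3 lower for the library labelled Isl1CKO (3.26% of all genes), 1 higher (3.47%) and 6 lower (4.21%) for Pou4f1KO, and 8 higher (3.63%) and 4 lower (5.28%) for the library labelled DKO. The latter had 8 higher (3.47%) and 1 lower (3.30%) against the library labelled Isl1CKO and 4 higher (2.44%) against Pou4f1KO. With a pseudocount of 0.1 TPM 1 collagen was higher in the library labelled DKO than in control (2.28% of all genes). With a pseudocount of 5 TPM (0.844% of all genes), and with FPKM (1.41%), 1 was lower there, since Col9a3 was at -0.88 and -0.94. A pseudocount of 5 TPM also left 1 higher against the library labelled Isl1CKO (0.106% of all genes).

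Scaling to mesenchyme markers moved the median of all genes by 0.54, 0.42 and -0.25 in the libraries labelled Isl1CKO, Pou4f1KO and DKO against control. Under it 2 collagens were higher (3.10% of all genes) and 0 lower (1.02%) in Pou4f1KO. In the library labelled DKO 0 were higher (0.140%) and 4 lower (9.36%) against the library labelled Isl1CKO, and 1 lower (8.23%) against Pou4f1KO, where it moved all genes by -0.79 and -0.67. Class medians that changed sign under it were those of the library labelled Isl1CKO against control (fibrillar 0.11, basement membrane 0.12, cartilage 0.09, other 0.28) and basement membrane in Pou4f1KO (0.31). So did, for the library labelled DKO, fibrillar -0.32, basement membrane -0.41 and other -0.29 against the library labelled Isl1CKO and -0.29, -0.55 and -0.43 against Pou4f1KO. The cartilage median of the library labelled DKO against Pou4f1KO also turned, from 0.05 to -0.63. Pan-neuronal scaling, which moved the median of all genes by -0.09, -0.28 and -0.15, turned the Pou4f1KO medians of fibrillar (-0.15) and other collagens (-0.02). The basement membrane median of the library labelled DKO against control was 0.02 without a minimum or at 5 TPM, and 0.03 with FPKM. Coverage in place of TPM, chosen after seeing the data, changed no count by more than 1.5 times. No paired analysis was possible because each genotype has 1 library.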

Other observations

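Collagens varied over the 4 libraries more than the median gene. The highest library stood a median of 1.71 times above the lowest for the 34 compared collagens and 1.22 times for 14978 compared genes above 0 in every library, and 9 of the 34 (26.5%) differed by at least 2 times, against 12.1%. The library labelled DKO was the highest for 17 of the 34 (50.0%; all genes 21.9%), and the library labelled Isl1CKO was the lowest for 19 (55.9%; all genes 27.7%). Neural tube markers, which summed to 15.5 to 19.1 TPM in the other libraries, stood at 103 TPM in Pou4f1KO. There Col20a1 and Col22a1 had the highest ratios to control of any collagen, 0.59 and 0.58. In the library labelled DKO, where these markers summed to 19.1 TPM, Col20a1 was higher still at 0.85 and Col22a1 was at 0.09. The part of neural tube cells in the Col20a1 and Col22a1 values was not tested.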
